A study of Mus musculus with 16 samples.

Results

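The genes of DNA replication and mitosis were followed across 8 fibroblast lines from mouse mammary tissue and between the 2 replicates of each line, on 16 Illumina bead arrays. The set held 49 genes, taken by gene symbol as a list of the machinery that copies and divides the genome. Of these, 45 had at least 1 probe and 34 had a probe that passed the filter on low signal, which asked for a detection p-value under 0.01 on at least 2 arrays, so that 34 of the 7454 genes with a tested probe belonged to the set. The RNA came from lines of the FVB/N strain, all of them immortalized by E6, a protein of human papillomavirus that directs p53 to degradation, and all kept untreated on a Matrigel and collagen I gel, in DMEM with serum, during the 72 h before extraction. The controls NF2 and NF3 were taken from normal gland. In the MMTV-PyMT model, where a mammary promoter drives the polyoma middle T oncogene in epithelium, hyperplastic tissue gave HpAF1, an adenoma gave AdAF1, and carcinomas gave the lines CAF1 to CAF4. Hyperplasia and adenoma were thus represented by 1 line each, so that stage and line cannot be told apart there, and every control line carried E6 as well. The labels number the replicates of a line 1 and 2 without saying whether they were separate cultures, and a p-value over them measures only the spread between these replicates, which may be technical.

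Before a cell copies its DNA, the Mcm2 to Mcm7 helicase is loaded on origins with the help of Cdc6 and Cdt1, and Cdc45 then joins it to open the double strand. Cyclin E starts the S phase, ribonucleotide reductase and thymidylate synthase supply the nucleotides, and in mitosis the kinases Cdk1, Plk1 and Aurka drive the assembly of spindle and kinetochores until Cdc20 activates the complex that lets the chromosomes separate. Many replication genes are driven by E2F factors late in G1, and many mitosis genes later by the MuvB complex with B-Myb and Foxm1, so the summed level of such RNAs is widely read as a measure of the share of dividing cells. In RNA from whole cultures, fewer dividing cells and less of the RNA per cell cannot be told apart.

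Promoters of 39 of the 49 genes were in a RefSeq table of build GRCm38.p6, which gives 250 bases before to 50 bases after the start of each gene. It held 32851 windows for 27025 genes. Each gene was read in its first listed window, and the second window that 4 genes of the set had was not counted. An E2F element (TTTNNCGC, searched on both strands) was found in 8 of 15 replication genes (53.3%) and in 1 of 24 mitosis genes (4.17%), against 5.27% of all 27025 genes in the table. The element called CHR, to which MuvB complexes bind (TTTGAA, both strands), was found in 3 of 15 replication genes (20.0%) and in 17 of 24 mitosis genes (70.8%), against 18.1% of all genes. The CCAAT box, the site of NF-Y (CCAAT, both strands), was found in 60.0% of the replication genes, 70.8% of the mitosis genes and 37.9% of all genes. A match is a description of the letters, not a site, and no match says only that these letters are not in the window. Promoters of 4 genes, picked as examples, are shown with the matches in capitals. They are Mcm3 and Mcm7, which were high in HpAF1, and Cenpa and Kif23, which were high in CAF3. They lie on GRCm38.p6 at chr1:20820263-20820562 (Mcm3, minus strand), chr5:138171834-138172133 (Mcm7, minus strand), chr5:30666636-30666935 (Cenpa, plus strand) and chr9:61946750-61947049 (Kif23, minus strand).
Mcm3: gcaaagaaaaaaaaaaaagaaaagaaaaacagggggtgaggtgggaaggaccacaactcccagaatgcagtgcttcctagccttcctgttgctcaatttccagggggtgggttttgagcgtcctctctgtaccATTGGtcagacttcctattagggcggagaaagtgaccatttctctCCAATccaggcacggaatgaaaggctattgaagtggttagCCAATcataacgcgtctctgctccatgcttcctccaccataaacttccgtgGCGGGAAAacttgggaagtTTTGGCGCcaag
Mcm7: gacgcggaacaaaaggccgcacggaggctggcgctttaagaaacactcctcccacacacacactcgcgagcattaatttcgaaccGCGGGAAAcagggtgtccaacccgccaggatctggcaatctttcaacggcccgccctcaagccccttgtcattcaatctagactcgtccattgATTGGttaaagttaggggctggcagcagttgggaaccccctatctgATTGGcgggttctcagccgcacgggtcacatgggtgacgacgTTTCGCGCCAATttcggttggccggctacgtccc
Cenpa: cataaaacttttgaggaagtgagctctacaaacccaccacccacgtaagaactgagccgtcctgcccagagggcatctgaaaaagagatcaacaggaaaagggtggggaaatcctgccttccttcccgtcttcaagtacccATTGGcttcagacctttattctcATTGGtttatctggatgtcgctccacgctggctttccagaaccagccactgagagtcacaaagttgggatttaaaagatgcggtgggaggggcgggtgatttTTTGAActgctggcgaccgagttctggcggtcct
Kif23: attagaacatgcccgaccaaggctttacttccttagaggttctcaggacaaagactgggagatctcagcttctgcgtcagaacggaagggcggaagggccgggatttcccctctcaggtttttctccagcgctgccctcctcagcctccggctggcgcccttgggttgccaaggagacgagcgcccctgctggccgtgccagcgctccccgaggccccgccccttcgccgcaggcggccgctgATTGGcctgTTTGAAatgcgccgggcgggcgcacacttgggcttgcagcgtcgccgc
In Mcm3 the capitals mark 3 CCAAT boxes, which begin at bases -117, -72 and -32 from the start site, and 2 E2F elements at bases 20 and 39. In Mcm7 they mark 3 CCAAT boxes and 2 E2F elements, of which the E2F element at base 17 shares a base with the CCAAT box at base 24. In Cenpa they mark CCAAT boxes at bases -109 and -86 and a CHR at base 17. In Kif23 they mark a CCAAT box at base -7 and a CHR at base 3. Windows of other genes high in these lines did not all hold the same matches. That of Mcm2, which had the largest difference in HpAF1, held 1 CCAAT box, 1 CHR and 0 E2F elements. Of genes high in CAF3, Kif11 had 1 CCAAT box and 1 CHR, as Kif23 had. Ndc80 had 1 CHR and no CCAAT box, and Nusap1 had none of the 3 motifs.

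**Figure D1:**
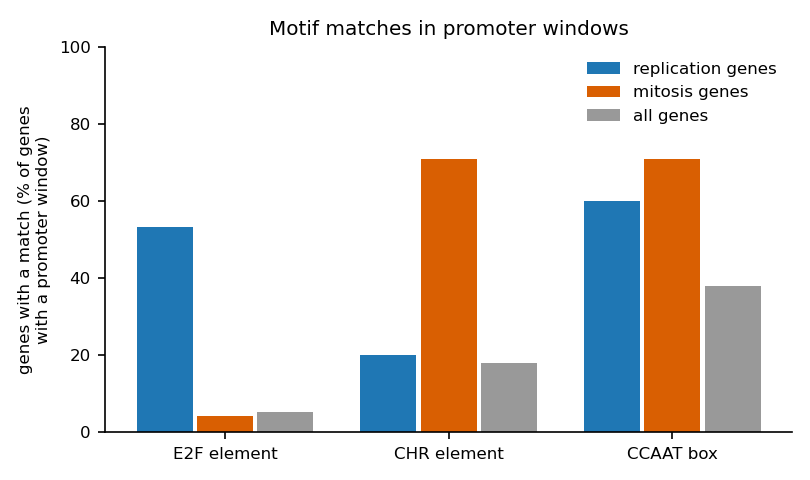
Share of genes (%, vertical axis) whose promoter window holds an E2F element, a CHR element or a CCAAT box, for the 15 replication genes, the 24 mitosis genes and all 27025 genes of the table. The E2F bar is highest for replication genes at 53.3% and the CHR bar is highest for mitosis genes at 70.8%.

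Of the 34 tested genes, 19 were detected on all 16 arrays and 15 on some. Mki67, the marker of dividing cells used in pathology, had no probe under its name, nor did Ccnb1, Aurkb or Gins2. A further 11 genes had a probe that did not pass the filter: Pcna, the sliding clamp of DNA polymerase, Hells, Ccna2, Ccnb2, Ttk, Bub1, Cenpe, Nuf2, Ska1, Kif20a and Ube2c. Each array detected between 7445 and 9823 of 25697 probes. Of 10 fibroblast markers, 8 were detected on every array, Col1a2 on 15 of 16 and Fap on none. Of the epithelial markers Krt19 and Cldn7 were detected on at most 2 arrays each and Cdh1, Krt8 and Krt18 on none. Of the leukocyte markers Lyz2 alone was detected, in CAF1 and CAF3. Of the endothelial markers Tek alone was detected, on 15 of 16 arrays. The summed linear intensity of the epithelial markers ranged from 353 to 431 over the arrays and that of the leukocyte markers from 360 to 526. That of the endothelial markers ranged from 270 to 403 and that of the fibroblast markers from 24897 to 37834.

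Levels are given as normalized log2 intensity per array, and are compared for 1 probe at a time, since probes of different genes differ in brightness. A single array stood apart in most of the set. Replicate 1 of CAF2 was the lowest of the 16 arrays for 30 of the 34 genes, and 19 of the 34 were detected on it, against 25 to 34 on the other arrays. Replicate 1 of CAF3 was the highest array for 12 genes and replicate 2 of HpAF1 for 7. The array medians over the 34 genes ran from 7.11 in replicate 1 of CAF2 and 7.69 in replicate 1 of CAF4 to 9.14 in replicate 2 of CAF3. The median over all tested probes was 7.95 on every array, which follows from the quantile normalization and is not an observation. In the map of the 34 genes, the low column of CAF2 replicate 1 reaches across every role from helicase to lamina.

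**Figure D2:**
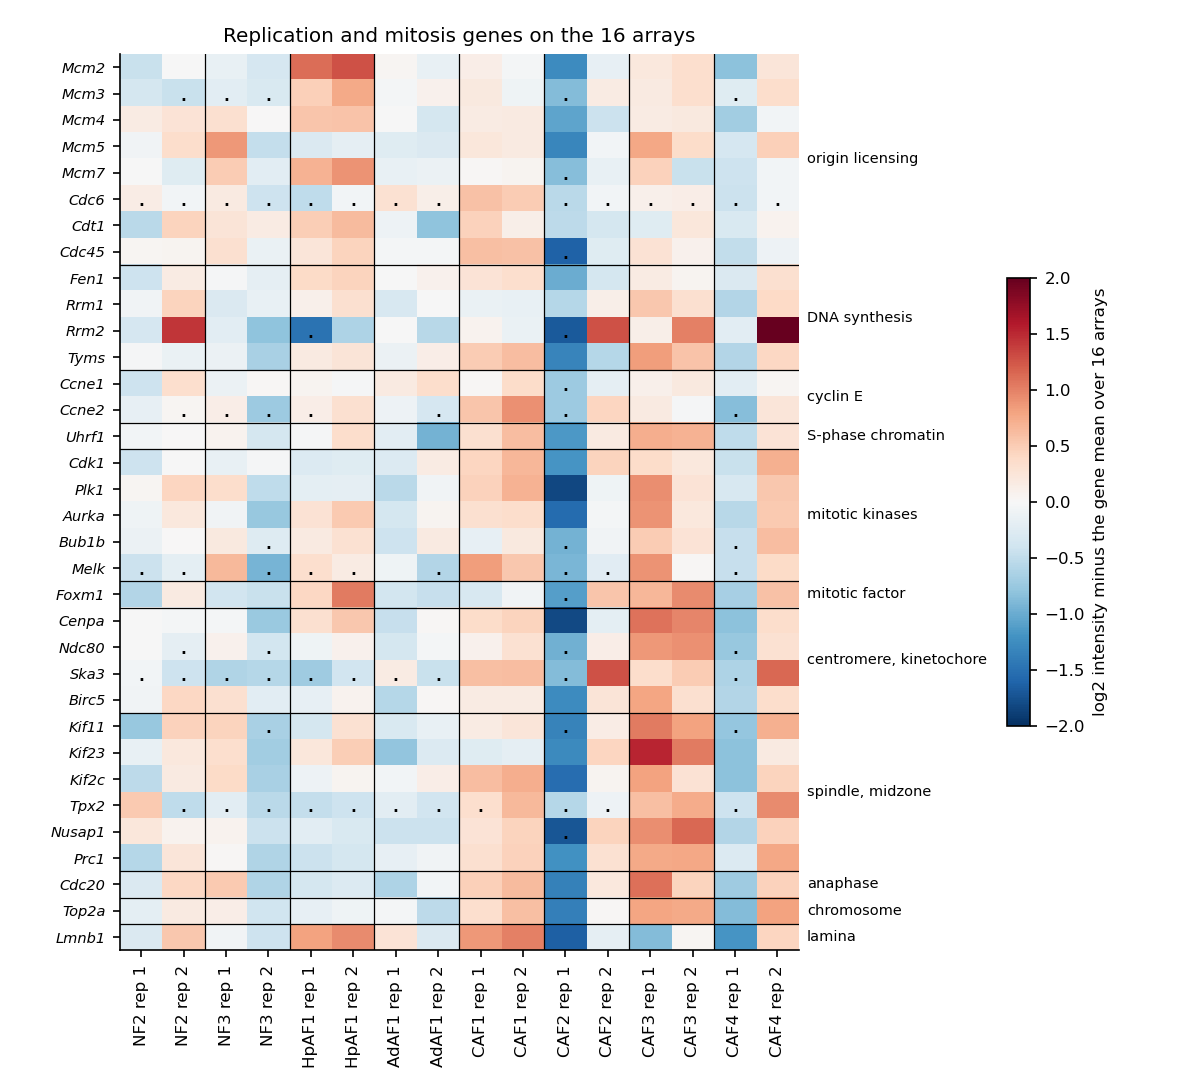
Log2 intensity of each of the 34 tested genes (rows, grouped by role) minus its mean over the 16 arrays (columns), from blue (lower) to red (higher), with a dot where the gene was not detected. Replicate 1 of CAF2 is blue in all rows, the HpAF1 columns are red for Mcm2, Mcm3, Mcm4 and Mcm7, and the CAF3 columns are red in the centromere and spindle rows.

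The first comparison asked which of the genes differ among the 8 lines beyond the spread between replicates. Those that did were replication genes: Mcm2 and Mcm4, subunits of the helicase, and Tyms, the thymidylate synthase. They are 3 of the 34 genes (8.82%), while 25.1% of all tested probes passed the same test (limma's moderated F, Benjamini-Hochberg adjusted over 10453 probes, threshold 0.05). In the replication group 3 of 15 passed and in the mitosis group 0 of 18, where 1 gene, Cenpa, had an unadjusted p under 0.05, as had 4262 of all 10453 probes. The median SD between replicates of a line was 0.52 over the 34 genes against 0.28 over all tested probes, and the median SD between line means was 0.44 against 0.30. Genes of the set thus had a larger SD than the median probe both within lines and between line means. A mean over 2 arrays carries part of the spread between replicates. The larger SD between line means therefore does not show that the lines differed more in the set. The count of 3 rested on single arrays: it was 0 without either array of HpAF1, CAF1 or CAF3 or without replicate 2 of AdAF1, 1 without replicate 1 of AdAF1 or of CAF2, and 10 without replicate 2 of CAF2. Without replicate 1 of CAF2 and of CAF4 together, an alternative chosen after the data were seen, 8 of 34 genes passed (23.5%, against 19.3% of probes): Mcm2, Mcm3, Tyms, Foxm1, Cenpa, Ndc80, Ska3 and Nusap1.

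In HpAF1, 4 of the 5 tested subunits of the Mcm helicase among the 49 genes were higher than in the other 7 lines: Mcm2, Mcm3, Mcm4 and Mcm7. These were 4 of the 34 genes, 11.8% and so close to the background of 10.7% of all probes, and 4 of the 8 tested genes of origin licensing; no gene of the set was lower, with a background of 11.0%. Mcm2 read 9.48 and 9.63 in HpAF1 and between 7.10 and 8.69 on the other 14 arrays. Its values were 7.91 and 8.35 in NF2, 8.21 and 8.02 for NF3, 8.40 and 8.20 for AdAF1, 8.49 and 8.32 for CAF1, 7.10 and 8.20 for CAF2, 8.57 and 8.69 for CAF3, and 7.54 and 8.60 for CAF4. Both HpAF1 arrays thus lay above every other array, and the other lines overlapped. Against the mean of the others Mcm2 was 2.58-fold higher (log2 1.37, SE 0.28, limma adjusted p = 0.00521).

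Mcm7, a subunit of the same ring, read 7.94 and 8.15 in HpAF1, 7.24 and 7.01 for NF2, 7.75 and 7.03 for NF3, 7.10 and 7.13 for AdAF1, 7.27 and 7.30 for CAF1, 6.40 and 7.09 for CAF2, 7.71 and 6.81 for CAF3, and 6.84 and 7.19 for CAF4. It was 1.88-fold higher in HpAF1 than in the others (log2 0.91, SE 0.25, limma adjusted p = 0.0221), although replicate 1 of NF3 and of CAF3 came close to the lower HpAF1 array. Mcm3 stood at 7.30 and 7.58 in HpAF1, 6.47 and 6.37 for NF2, 6.62 and 6.51 for NF3, 6.79 and 6.90 for AdAF1, 7.01 and 6.74 for CAF1, 5.96 and 6.99 for CAF2, 7.01 and 7.15 for CAF3, and 6.58 and 7.17 for CAF4, with detection on 11 of 16 arrays. Its difference in HpAF1 was 0.71 (SE 0.23, limma adjusted p = 0.0453). Both of these genes were highest on the HpAF1 arrays, by less than Mcm2.

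Mcm4, a bright probe, read 11.96 and 11.98 in HpAF1, 11.57 and 11.69 for NF2, 11.73 and 11.41 for NF3, 11.40 and 11.06 for AdAF1, 11.58 and 11.59 for CAF1, 10.36 and 10.97 for CAF2, 11.57 and 11.61 for CAF3, and 10.72 and 11.36 for CAF4. HpAF1 was high and CAF2 low, and the difference in HpAF1 was 0.64 (SE 0.19, limma adjusted p = 0.0343). Mcm5, the fifth tested subunit, did not share this: it read 9.25 and 9.36 in HpAF1, within the range of the other arrays, and differed from them by -0.27 (SE 0.34, limma adjusted p = 0.610). Its values elsewhere were 9.48 and 9.89 in NF2, 10.40 and 9.07 for NF3, 9.30 and 9.26 for AdAF1, 9.76 and 9.72 for CAF1, 8.24 and 9.49 for CAF2, 10.31 and 9.90 for CAF3, and 9.20 and 10.02 for CAF4. Mcm5 was spread within NF3 as widely as between most lines.

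Of the loading factors in HpAF1, Cdt1 read 8.24 and 8.39, above all other arrays, and did not pass (0.64, SE 0.24, limma adjusted p = 0.0829). The flap endonuclease Fen1, which trims Okazaki fragments, read 10.04 and 10.11, also above all others, and did not pass either (0.47, SE 0.20, limma adjusted p = 0.116). In all, both HpAF1 arrays lay above the 14 others for 6 of the 34 genes (17.6%), beside 9.56% of all probes. Without either HpAF1 array, with the remaining array assumed to vary like those of the other lines, 0 genes were called. The count was 1 with arrays scaled to a common median and 2 without the filter on low signal. Counts without replicate 1 of CAF2 and of CAF4 are not read as support, since the set had its lowest medians on these arrays.

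Chromosomes contributed unequally to what was high in HpAF1. On chromosome 6, 218 of 541 tested probes were higher in HpAF1 (40.3%), and on chromosome 18, 91 of 232 (39.2%). Mcm2 lies on chromosome 6. The other called subunits lie on chromosomes 1 (Mcm3, 12.1% of probes higher), 16 (Mcm4, 18.1%) and 5 (Mcm7, 15.2%), and Mcm5 on chromosome 8 (8.37%). Foxm1, on chromosome 6 (0.83, SE 0.38, limma adjusted p = 0.142), and Lmnb1, on chromosome 18 (1.01, SE 0.42, limma adjusted p = 0.108), were not called, though their differences were larger than those of Mcm3 and Mcm4. Of the further cycle genes outside the set that were called higher in HpAF1, Rpa3 and Ccnd2 lie on chromosome 6. The others lie on chromosomes 2 (Mcm10 and Ncaph), 5 (Cdc7) and 9 (Tipin). Cdca3, Mad2l1 and Ncapd2, also on chromosome 6, were tested and not called. The part of the chromosomes in the Mcm2 difference was not tested.

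CAF2 was the line in which genes of the set were lower: Mcm4, Cdc45, Fen1 and Tyms, 4 of 34 (11.8%) beside a background of 6.06%, with none higher (background 6.07%). Tyms read 9.17 and 9.93 in CAF2, 10.48 and 10.36 for NF2, 10.39 and 9.85 for NF3, 10.67 and 10.75 for HpAF1, 10.39 and 10.63 for AdAF1, 11.01 and 11.12 for CAF1, 11.33 and 11.06 for CAF3, and 9.91 and 10.91 for CAF4. It was 2.12-fold lower in CAF2 than in the mean of the others (log2 -1.08, SE 0.25, limma adjusted p = 0.0161), yet replicate 2 of CAF2 lay above replicate 2 of NF3 and replicate 1 of CAF4. Tyms was highest in CAF1 and CAF3.

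Cdc45, which completes the active helicase, read 5.87 and 7.25 in CAF2, 7.53 and 7.54 for NF2, 7.82 and 7.36 for NF3, 7.74 and 7.94 for HpAF1, 7.46 and 7.46 for AdAF1, 8.09 and 8.08 for CAF1, 7.79 and 7.59 for CAF3, and 7.00 and 7.39 for CAF4. The first CAF2 value was below detection and the second within the range of CAF4 (log2 -1.07, SE 0.26, limma adjusted p = 0.0222). Fen1 read 8.67 and 9.31 in CAF2 and 9.25 and 9.83 in NF2, 9.65 and 9.48 for NF3, 9.66 and 9.74 for AdAF1, 9.94 and 9.99 for CAF1, 9.83 and 9.72 for CAF3, and 9.38 and 9.99 for CAF4 (-0.77, SE 0.20, limma adjusted p = 0.0294). For Mcm4 in CAF2 the difference was -0.85 (SE 0.19, limma adjusted p = 0.0155). Both CAF2 arrays were below all others for 0 genes of the set, beside 3.97% of all probes. The low line mean was carried by replicate 1: without it 0 genes were called in CAF2, and without replicate 2 there were 12. Without replicate 1 of CAF2 and of CAF4 together, 1 gene was called, and 2 with arrays scaled to a common median.

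In CAF3, the line mean was above that of the other lines for 18 of 18 mitosis genes, with a median difference of 0.82, and 1 gene passed the test. Kif23, the kinesin of the central spindle that cytokinesis needs, was higher in CAF3, 1 of 34 genes (2.94%), close to the background of 3.07%; none was lower (3.52%). Kif23 read 9.81 and 9.33 in CAF3, 8.14 and 8.50 for NF2, 8.63 and 7.60 for NF3, 8.52 and 8.79 for HpAF1, 7.50 and 8.01 for AdAF1, 8.05 and 8.11 for CAF1, 7.02 and 8.72 for CAF2, and 7.47 and 8.48 for CAF4. Both CAF3 arrays were above all others, and Kif23 was 2.75-fold higher than in the mean of the others (log2 1.46, SE 0.39, limma adjusted p = 0.0459). Without either CAF3 array, or without the filter on low signal, the count was 0.

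For 6 of the 34 genes (17.6%, beside 3.46% of all probes) both CAF3 arrays lay above the 14 others: Uhrf1, which maintains DNA methylation behind the fork, Cenpa, the histone H3 variant of centromeres, Ndc80 of the outer kinetochore, the spindle motor Kif11, Kif23, and Nusap1, which stabilizes spindle microtubules. Cenpa read 13.12 and 13.01 in CAF3, 12.03 and 12.00 for NF2, 12.01 and 11.29 for NF3, 12.35 and 12.57 for HpAF1, 11.58 and 12.06 for AdAF1, 12.40 and 12.48 for CAF1, 10.24 and 11.84 for CAF2, and 11.22 and 12.38 for CAF4. It differed in CAF3 by 1.18 (SE 0.36, limma adjusted p = 0.0761). Ndc80, at 7.56 and 7.62 in CAF3, was at most 7.00 elsewhere (1.02, SE 0.28, limma adjusted p = 0.0532), and Nusap1, at 9.19 and 9.41, was at most 8.72 elsewhere (1.19, SE 0.40, limma adjusted p = 0.106). None of these 3 passed. Leaving out replicate 1 of CAF2 and of CAF4, on which the set was lowest, changes the spread of the set itself and is not read as support.

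In the other 5 lines 0 genes of the set passed in limma. At an unadjusted p under 0.05 there were 0 in NF2, 0 in NF3, 0 in AdAF1, 5 in CAF1 and 1 in CAF4, beside 1097, 1743, 1536, 2512 and 1795 of all 10453 probes, a larger share of the probes than of the set in each line. At the adjusted threshold the backgrounds were 0.335% of probes higher and 0.297% lower in NF2, 0.603% and 1.53% in NF3, 1.85% and 0.765% in AdAF1, 4.76% and 3.05% in CAF1, and 2.05% and 2.29% in CAF4. CAF1 nonetheless had a line mean above the others for 30 of the 34 genes, with a median difference of 0.40 where the median of all probes was close to 0, and CAF3 for 32, with a median of 0.63 against 0.02. AdAF1 and NF3 had a mean above the others for 6 genes each, with medians of -0.22 and -0.16. Both CAF1 arrays were above all others for Cdc6, Cdc45 and Ccne2, 3 of 34 genes (8.82%) beside 4.90% of all probes. Cdc6, the loader of the helicase, passed the filter only through the CAF1 arrays, where it read 6.15 and 6.07, so its place is set by the filter. It was listed below detection at 5.71 and 5.51 in NF2, 5.74 and 5.15 for NF3, 5.06 and 5.51 for HpAF1, 5.87 and 5.68 for AdAF1, 5.02 and 5.52 for CAF2, 5.67 and 5.70 for CAF3, and 5.13 and 5.51 for CAF4.

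**Figure D3:**
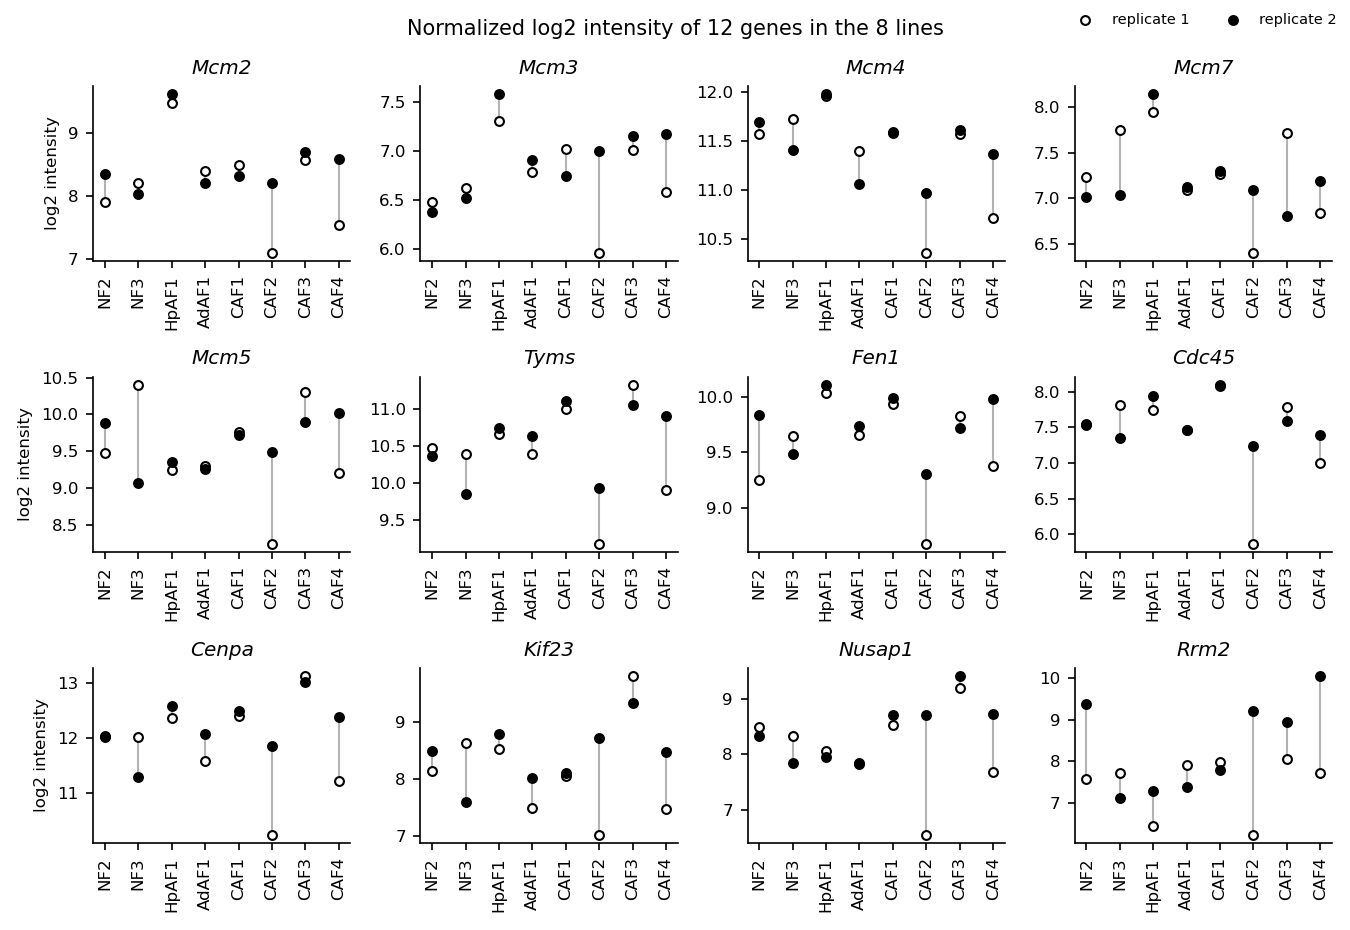
Normalized log2 intensity (vertical axes, which do not start at 0) of 12 genes in the 8 lines, with replicate 1 as an open and replicate 2 as a filled circle joined by a line. Mcm2 in HpAF1 (9.48 and 9.63) and Kif23 in CAF3 (9.81 and 9.33) lie above all other arrays. For most of the genes CAF2 or CAF4 has the longest joining line, though NF3 has it for Mcm5 and CAF3 for Mcm7.

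Between the replicates of a line, the widest differences of the set were found in CAF2 and CAF4, where every gene detected on either array was higher in replicate 2. In CAF2 this held for 31 of 31 genes, beside 53.0% of all probes detected on either array, with a median log2 difference of 1.39. In CAF4 it held for 33 of 33 genes, beside 53.7%, with a median of 1.05. Replicate 2 was at least 2-fold higher for 23 genes in CAF2, against 4.38% of probes, and for 20 in CAF4, against 4.34%. It was 2-fold lower for 0 genes in either line, against 4.09% and 3.55% of probes. Where a gene was undetected in replicate 1 its difference is not a measured size, and a lower bound was taken against the lowest signal detected on that array. With such genes at their bound the medians were 1.24 and 0.98 and the counts 17 and 15. Over the 19 genes detected on all 16 arrays, a group chosen after the data were seen, the medians were 1.45 and 1.01. In the authors' normalized table, which by its values had no background subtracted, 14 genes in CAF2 and 7 in CAF4 were at least 2-fold apart. A comparison of 1 array with 1 other has no replicate check, and these differences carry no p-value.

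The median difference between these replicates was larger for mitosis genes than for replication genes, a description without a test. It was 1.57 over 16 mitosis genes and 0.90 over 14 replication genes in CAF2, and 1.12 over 18 against 0.72 over 14 in CAF4. Rrm2, the regulated subunit of ribonucleotide reductase, had the largest value in both lines. It read 6.25, below detection, and 9.20 in CAF2, at least 5.98-fold higher in replicate 2, and 7.71 and 10.04 for CAF4, a log2 difference of 2.33. Rrm2 was also wide in NF2, at 7.59 and 9.36, and read 7.71 and 7.12 in NF3, 6.45 and 7.30 for HpAF1, 7.91 and 7.37 for AdAF1, 7.99 and 7.79 for CAF1 and 8.05 and 8.94 in CAF3. Its partner Rrm1, the large subunit, differed less, with 9.31 and 10.00 in CAF2 and 9.30 and 10.29 in CAF4.

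Cdk1, the kinase that starts mitosis, read 8.92 and 10.55 in CAF2 and 9.65 and 10.80 in CAF4. On the other arrays it was 9.68 and 10.08 in NF2, 9.95 and 10.07 for NF3, 9.81 and 9.86 for HpAF1, 9.81 and 10.26 for AdAF1, 10.52 and 10.76 for CAF1, and 10.46 and 10.31 for CAF3. Replicate 2 of CAF2 and of CAF4 lay near the level of CAF1 and CAF3, and replicate 1 of CAF2 below every other array. Top2a, the topoisomerase that untangles sister chromosomes, read 7.25 and 8.63 in CAF2 and 7.74 and 9.40 in CAF4. Its other values were 8.42 and 8.79 in NF2, 8.74 and 8.21 for NF3, 8.44 and 8.52 for HpAF1, 8.57 and 8.08 for AdAF1, 8.95 and 9.21 for CAF1, and 9.40 and 9.37 for CAF3. As for Cdk1, the first replicates of CAF2 and CAF4 were the lowest arrays of Top2a.

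Lmnb1, the lamin B1 of the nuclear envelope, read 7.69 and 9.14 in CAF2 and 8.14 and 9.74 in CAF4. It had its highest values in CAF1 (10.18 and 10.33) and HpAF1 (10.13 and 10.27) and stood at 9.03 and 9.86 in NF2, 9.25 and 8.91 for NF3, 9.60 and 9.03 for AdAF1, and 8.45 and 9.37 for CAF3. Lmnb1 was thus low in replicate 1 of CAF3, where 12 other genes of the set had their highest value. Foxm1, the transcription factor of mitosis genes, read 6.50, below detection, and 8.16 in CAF2, at least 2.91-fold higher in replicate 2, and 6.94 and 8.19 for CAF4. It read 7.01 and 7.79 in NF2, 7.22 and 7.16 for NF3, 8.02 and 8.65 for HpAF1, 7.23 and 7.14 for AdAF1, 7.28 and 7.53 for CAF1, and 8.27 and 8.55 for CAF3. Ccne1, the cyclin E that opens the S phase, differed least in CAF4 (7.09 and 7.33) and read 6.57 and 7.11 in CAF2.

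Among the kinetochore and spindle genes, Nusap1 was at least 4.25-fold higher in replicate 2 of CAF2 and higher by 1.05 in CAF4. Kif23 differed by 1.70 and 1.01, Cenpa by 1.60 and 1.17, and Cdc20, the activator of the anaphase-promoting complex, by 1.58 and 1.17. Cdt1, whose protein is destroyed once replication starts, had small differences of 0.17 and 0.38. Mcm7 was at least 1.39-fold higher in replicate 2 of CAF2 and higher by 0.36 in CAF4. Across the 34 genes the differences of CAF2 and CAF4 correlated with r = 0.70, and across the 10409 probes of other genes with r = 0.65. The genes share the 4 arrays, and are not independent points.

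**Figure D4:**
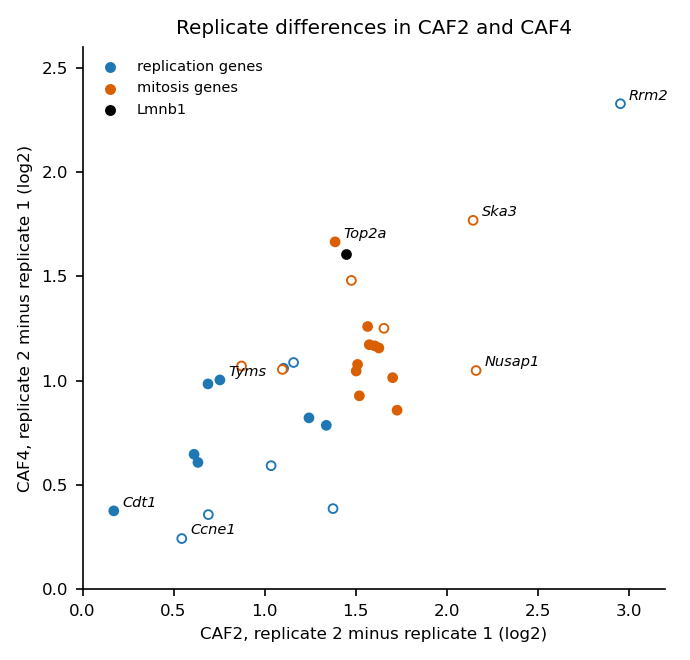
Replicate 2 minus replicate 1 (log2) in CAF2 (horizontal) and CAF4 (vertical) for the 31 genes detected on either array in both lines, with replication genes in blue, mitosis genes in orange and Lmnb1 in black; the 12 open circles are genes not detected on an array of CAF2 or CAF4, whose place is no measured size. All points lie above 0 on both axes, and the lowest in CAF2 is Cdt1, detected on all 4 arrays, at 0.17 and 0.38.

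The number of detected probes ran the same way as the median difference of the set in CAF2, CAF4 and CAF3 and, by little, in NF3 and HpAF1. It ran the other way in NF2, AdAF1 and CAF1. Replicates 1 and 2 detected 9823 and 9236 probes in CAF3 and 7954 and 7993 in HpAF1. The counts were 9093 and 7749 in AdAF1 and 9599 and 9394 in CAF1. Replicate 1 detected fewer probes than replicate 2 in CAF2 (7748 and 8687) and in CAF4 (7693 and 9204). In NF3, where 26 of 29 genes were lower in replicate 2 (beside 48.1% of probes higher) with a median of -0.53, the arrays detected 7602 and 7445 probes. There, 6 genes were at least 2-fold lower, against 7.69% of probes, or 4 with undetected genes at their bound, which were Kif2c (9.03 and 7.99), Mcm5 (10.40 and 9.07), Cdc20 (10.20 and 9.07) and Kif23 (8.63 and 7.60). In NF2, 24 of 31 genes were higher in replicate 2 (47.5% of probes), with a median of 0.38, and the arrays detected 9600 and 7929 probes. At least 2-fold differences in NF2 were 2 higher (4.19%), Rrm2 and Kif11, and 1 lower (5.49%). The lower one is Tpx2, which was not detected in replicate 2 and whose replicate 1 lay below the lowest signal detected there, so no fold is given and the count with genes at their bound is 0. The part of array quality in these differences was not tested.

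The replicates of the other lines were closer in size of difference. In HpAF1, 28 of 30 genes were higher in replicate 2 and 2 lower, where 50.7% of probes were lower, with a median difference of 0.16. Of the genes detected on all arrays, 19 of 19 were higher there, with a median of 0.14. In AdAF1, 19 of 31 genes were higher in replicate 2 (46.2% of probes), with a median of 0.09, in CAF1 25 of 34 (49.2%), with a median of 0.08, and in CAF3 13 of 33 (48.3%), with a median of -0.11. None of the genes differed 2-fold in these 4 lines. The backgrounds for a replicate 2 at least 2-fold higher and lower were 0.0850% and 0.0364% for HpAF1, 1.01% and 1.26% for AdAF1, 0.0309% and 0.0515% for CAF1, and 2.39% and 2.07% for CAF3. When arrays were scaled to a common median in place of quantiles, the median of all probes shifted by -0.43 in NF2, -0.37 in AdAF1, 0.21 in CAF2 and 0.43 in CAF4. Under that scaling 12 of the 34 genes were higher in replicate 2 of NF2, in place of 25, and 8 in AdAF1, in place of 19, so the direction in these lines depends on the scaling. In CAF2 and CAF4 all 34 genes, undetected ones included, were higher in replicate 2 under quantile and median scaling and in the authors' normalized table. Relative to the median of all probes the median of the set was 1.51 against 0.21 in CAF2 and 1.47 against 0.43 in CAF4 with median scaling.

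**Figure D5:**
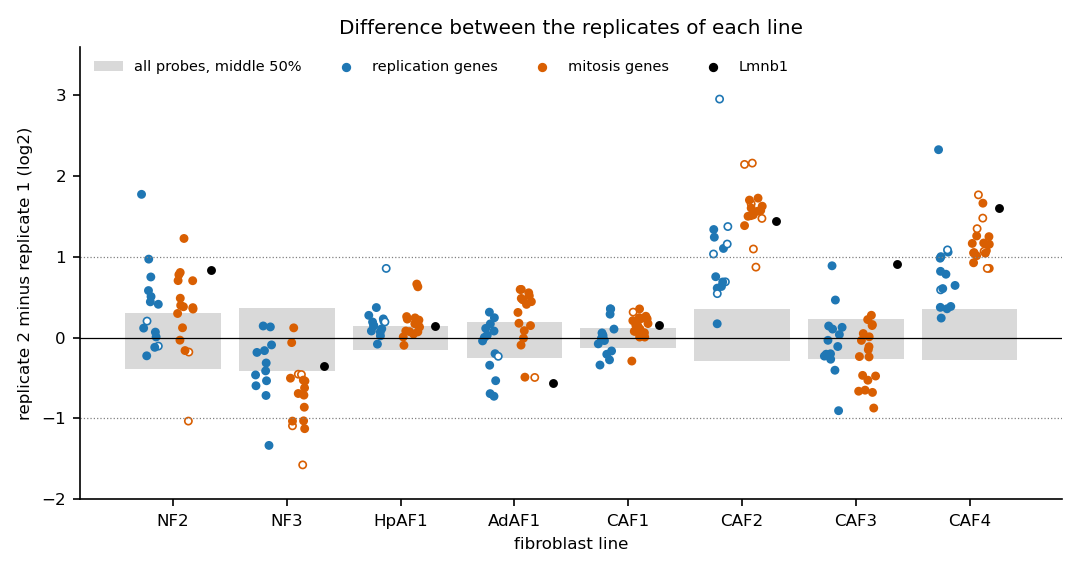
Replicate 2 minus replicate 1 (log2, vertical axis) of each gene of the set detected on either array, by line, over a grey box that spans the middle 50% of all probes, with dotted lines at a 2-fold difference and open circles for genes detected on 1 of the 2 arrays. All points of CAF2 and CAF4 lie above 0, with medians of 1.39 and 1.05, while 26 of 29 points of NF3 lie below it.

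For 6 of the genes several probes were tested. Those of Rrm2, Foxm1, Birc5 and Cdc20 ran the same way in CAF2 and CAF4. For Birc5, the survivin of the chromosomal passenger complex, the 3 probes gave 1.52, 1.68 and 1.97 for CAF2. For Uhrf1 they disagreed: the brighter probe gave 1.34 in CAF2 and 0.79 in CAF4, and the other -0.81 and -1.08. For Tyms, the brightest probe gave 0.75 and 1.00, and 1 of the dim probes gave -0.24 in CAF2. Values of Uhrf1 therefore hold for its brighter probe alone.

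A test of replicate 2 against replicate 1 over all 8 lines asked whether the replicate numbers differ in 1 direction. In limma 0 of the 34 genes passed (0% of probes), and 5 had an unadjusted p under 0.05, as had 1791 of all 10453 probes. The smallest p belonged to Foxm1, higher in replicate 2 by 0.59 (SE 0.19, limma adjusted p = 0.196) in 6 of 8 lines, Ccne1 by 0.28 (SE 0.10, limma adjusted p = 0.229) in 7 of 8, Cdk1 by 0.49 (SE 0.19, limma adjusted p = 0.232) in 7 of 8, Rrm1 by 0.33 (SE 0.13, limma adjusted p = 0.253) in 6, Rrm2 by 0.93 (SE 0.39, limma adjusted p = 0.257) in 5 and Lmnb1 by 0.52 (SE 0.24, limma adjusted p = 0.294) in 6. On the remaining arrays Rrm1 read 9.82 and 10.33 in NF2, 9.60 and 9.74 for NF3, 9.98 and 10.21 for HpAF1, 9.57 and 9.88 for AdAF1, 9.76 and 9.74 for CAF1, and 10.43 and 10.20 for CAF3. Ccne1 read 6.88 and 7.63 in NF2, 7.18 and 7.31 for NF3, 7.36 and 7.27 for HpAF1, 7.48 and 7.65 for AdAF1, 7.31 and 7.67 for CAF1, and 7.39 and 7.49 for CAF3. The ranges of the replicates overlapped for both genes.

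Between stages, with lines as replicates, no gene of the set passed in any of the 3 comparisons with normal lines. In carcinoma against normal (4 lines against 2), 0 of 34 passed (background 0%) and 1 had an unadjusted p under 0.05, against 293 of all probes. The carcinoma mean was above the normal mean for 26 of 34 genes, with a median of 0.19 against 0.01 over all probes. Ska3, a kinetochore protein, had the smallest p. It was detected on 0 of 4 normal arrays and on 6 of 8 carcinoma arrays, and passed the filter through carcinoma arrays alone, so no fold is given; its values were 5.46 and 5.11 in NF2, 4.92 and 4.96 for NF3, 4.80 and 5.14 for HpAF1, 5.69 and 5.08 for AdAF1, 6.12 and 6.13 for CAF1, 4.65 and 6.80 for CAF2, 5.86 and 6.03 for CAF3, and 4.91 and 6.68 for CAF4. Replicate 1 of CAF2 and of CAF4 lay at the level of the normal lines.

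Mcm3 followed in carcinoma (0.33, SE 0.21, limma adjusted p = 1), and then Tpx2, which activates Aurka on the spindle (0.46, SE 0.31, limma adjusted p = 1). Tpx2 was detected on 5 arrays and read 5.91 and 4.88 in NF2, 5.18 and 4.85 for NF3, 4.91 and 4.97 for HpAF1, 5.17 and 5.00 for AdAF1, 5.72 and 6.04 for CAF1, 4.82 and 5.29 for CAF2, 5.98 and 6.13 for CAF3, and 4.98 and 6.32 for CAF4. Its first NF2 array lay among the carcinoma arrays. In hyperplasia against normal 0 of 34 passed (background 0.325%) and 3 had an unadjusted p under 0.05, against 1277 probes: Mcm2 (1.43, SE 0.41, limma adjusted p = 0.264), Mcm3 (0.95, SE 0.30, limma adjusted p = 0.292) and Mcm7 (0.79, SE 0.31, limma adjusted p = 0.381). These are the genes that stood high in HpAF1 against the other lines, and the normal arrays are among those they were set against there.

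In adenoma against normal 0 of 34 passed (background 0%) and 0 had an unadjusted p under 0.05, against 422 probes. The smallest p belonged to Cdt1 (-0.54, SE 0.34), Mcm3 (0.35, SE 0.30) and Uhrf1 (-0.50, SE 0.49), each with a limma adjusted p = 1. Cdt1 read 7.65 and 6.96 in AdAF1, 7.23 and 8.20 for NF2, 8.02 and 7.93 for NF3, 8.22 and 7.88 for CAF1, 7.23 and 7.40 for CAF2, 7.52 and 7.99 for CAF3, and 7.45 and 7.83 for CAF4. Uhrf1 read 8.57 and 7.84 in AdAF1, 8.72 and 8.79 for NF2, 8.85 and 8.44 for NF3, 8.76 and 9.13 for HpAF1, 9.11 and 9.40 for CAF1, 7.63 and 8.97 for CAF2, 9.52 and 9.49 for CAF3, and 8.28 and 9.07 for CAF4. For both genes an AdAF1 array lay within the range of the normal lines. With arrays as the unit and the line as a random block, 0 genes of the set passed in each of the 3 comparisons. With 8 lines, and 1 line each for hyperplasia and adenoma, the number of lines limits what these comparisons can show.

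Genes of the same pathways outside the set were read in the same way. Of 48 further replication genes 32 were tested and 4 differed among the lines (12.5%, against 25.1% of all probes). They were Cdc7, the kinase that fires origins (limma adjusted p = 0.0151), Orc3 of the origin recognition complex (limma adjusted p = 0.0168), Mcm10 (limma adjusted p = 0.0264) and Chaf1b of the chromatin assembly factor (limma adjusted p = 0.0415). In HpAF1, 4 of the 32 were higher (12.5%, beside 10.7% of all probes). Cdc7 was higher by 0.90 (SE 0.19), Mcm10 by 0.80 (SE 0.26), the replication protein A subunit Rpa3 by 0.55 (SE 0.16) and Tipin, of the fork protection complex, by 0.51 (SE 0.17). Mcm6, the sixth subunit of the helicase, read 9.17 and 8.99 in HpAF1, within the range of the other arrays. In CAF2, Mcm10, Cdc7, Chaf1b and the clamp loader subunit Rfc2 were lower (12.5%, beside 6.06% of all probes). Orc3 was higher there by 0.45 (SE 0.12), 1 of the 32 genes (3.1%, beside 6.07%). Of 70 further mitosis genes 34 were tested and 0 differed among the lines in limma, with 1 at an unadjusted p under 0.05, Ncaph of condensin (limma adjusted p = 0.0954). Ckap5, Dsn1 and Cenpm followed, with a limma adjusted p of 0.129, 0.133 and 0.135. Ncaph was higher in HpAF1 by 0.75 (SE 0.24), 1 of the 34 genes (2.94%, beside 10.7% of all probes). Between replicates, 29 of 31 further replication genes and 28 of 28 further mitosis genes were higher in replicate 2 of CAF2, with medians of 0.64 and 1.43, or 0.49 and 0.66 with undetected genes at their bound. In CAF4 they were 29 of 31 and 29 of 29, with medians of 0.52 and 1.10, or 0.45 and 0.84 at the bound.

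Regulators upstream of the cycle were followed beside the set. Of 13 tested activators of G1, 3 differed among the lines (23.1%, against 25.1% of all probes): E2f2 (limma adjusted p = 0.0333), which was detected on 3 of 16 arrays, the D-type cyclin Ccnd2 (limma adjusted p = 0.0402) and E2f3 (limma adjusted p = 0.0421), while E2f1 did not pass (limma adjusted p = 0.150). Ccnd2 was higher in HpAF1 (0.76, SE 0.20) and lower in CAF1 (-0.72, SE 0.20), and E2f3 was lower in CAF2 (-0.77, SE 0.20). Of 13 tested inhibitors 5 differed (38.5%): Cdkn2c (limma adjusted p = 0.00337), Trp53inp1 (limma adjusted p = 0.00570), Cdkn2a (limma adjusted p = 0.0131), Ccng1 (limma adjusted p = 0.0313) and Rb1 (limma adjusted p = 0.0497). In CAF2, the retinoblastoma gene Rb1 was higher by 1.12 (SE 0.22), Trp53inp1, a target of p53, by 0.83 (SE 0.19) and Cdkn1a, the p21 inhibitor, by 0.54 (SE 0.16), and Cdkn2a was lower (-0.94, SE 0.24). In CAF3 Trp53inp1 was higher too, by 0.90 (SE 0.19, limma adjusted p = 0.0184), and Cdkn2c, an inhibitor of Cdk4 and Cdk6, by 1.30 (SE 0.17). In CAF1 Cdkn2a was higher by 1.22 (SE 0.24, limma adjusted p = 0.0118). Cdkn2c was lower in HpAF1 (-0.66, SE 0.17, limma adjusted p = 0.0165), and Ccng1 was lower in CAF4. E2f2 was called higher in CAF1, but it was detected on the 2 CAF1 arrays and 1 other. It thus passed the filter only through CAF1, and its place there is set by the filter.

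Cdkn1a read 12.73 and 12.29 in CAF2, 12.30 and 12.18 for NF2, 12.21 and 12.14 for NF3, 12.18 and 12.05 for HpAF1, 11.91 and 11.72 for AdAF1, 12.11 and 11.97 for CAF1, 12.11 and 11.79 for CAF3, and 11.65 and 11.29 for CAF4. It was highest in replicate 1 of CAF2, the array on which most genes of the set were lowest, and lowest in CAF4 (-0.65, SE 0.16, limma adjusted p = 0.0412). Cdkn1a was lower in replicate 2 than in replicate 1 in 8 of 8 lines, by a mean difference of -0.22 (SE 0.08, limma adjusted p = 0.220). As a group the inhibitors did not share the differences between replicates: 6 of 13 were higher in replicate 2 of CAF2 and 7 of 13 in CAF4, with medians of -0.08 and 0.20. All 12 detected G1 activators were higher in replicate 2 in both lines, with medians of 0.63 and 0.58.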

How the data were processed

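RNA was hybridized to single-colour Illumina bead arrays as biotin-labelled cRNA, per the labels' protocols. The authors deposited 2 tables. One gives the raw intensity of every probe and, beside it, a detection p-value, and per the file headers it is not normalized. The other deposited table holds intensity values that the authors normalized between arrays, judged by the array medians (134.12 to 134.34), and served as an alternative. Scanner settings were not in the sources used here.

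Background correction, quantile normalization and the log2 transform were done by neqc (limma 3.58.1, R 4.3.3, offset 16), which inferred the negative controls from the detection p-values. Of 25697 probes, 10453 had a detection p under 0.01 on at least 2 arrays and were tested. Differences between dim probes are understated, because values near background are compressed. Symbols came from the platform annotation through Entrez numbers (23962 of 23978 probes with a symbol matched RefSeq), and the probe of highest mean represents each gene. Where 1 side of a difference was not detected, the fold is a lower bound, computed against the lowest signal of a detected probe on that array, and none is given where that bound is under 1 or neither side was detected.

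Linear models (lmFit, eBayes) gave 1 mean per line (residual degrees of freedom 8, prior 3.69), replicate 2 against replicate 1 with the line as a block (7, prior 3.87), and stages over line means (4, prior 2.96), in which the lone lines of hyperplasia and adenoma were assumed to vary like the others. Two-sided p-values were adjusted after Benjamini and Hochberg across every tested probe, and the threshold was 0.05. The scripts were tested on simulated data. Replicate numbers were not taken as pairs across lines: the differences between replicates correlated between -0.20 and 0.65 over 28 pairs of lines, above 0.1 in 12. Every pair among NF2, NF3, CAF2, CAF3 and CAF4 was positive, from 0.14 (NF3 and CAF4) to 0.65 (CAF2 and CAF4). Whether arrays of the same number shared a processing step in these lines was not tested. The closest arrays correlated at 0.996, and none were identical.

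Values on every array were to be given for 8 genes whatever their values (Mki67, Top2a, Cdk1, Ccnb1, Mcm2, Mcm5, Pcna, Cdkn1a), of which Mki67, Ccnb1 and Pcna had no tested probe, the 10 with the smallest p among lines, the 6 with the smallest p between replicates, the 3 with the smallest p per stage, and the 3 of highest difference in each line with a call. Of each other list, the 4 genes with the smallest p are named. Lists, genes and tests were chosen with earlier results of these data known. Alternatives were another normalization, the deposited normalized table, other filters, averaged probes, a replicate block, single arrays or lines left out, and a looser threshold.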

Additional observations from a re-analysis of the deposited data

Results flagged for a closer look

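Kif23 in CAF3 lay far from the other 3 carcinoma lines, with a line mean of 9.57 against 8.08 in the nearest and 7.87 in the farthest line. This check was made for 34 genes and flags about 1 in 20 by chance.

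For 3 genes replicate 2 was below replicate 1 in both normal lines and above it in all 4 carcinoma lines, a difference that was not tested. Nusap1 differed by a mean of -0.33 in the normal and 0.90 in the carcinoma lines, 1.23 apart, and was not detected in replicate 1 of CAF2. Ndc80 differed by -0.32 and 0.60, 0.92 apart, but was not detected in replicate 2 of NF2 and NF3 or in replicate 1 of CAF2 and CAF4, so these sizes are not measured ones. Tpx2 differed by -0.68 and 0.57, 1.25 apart, but was detected on neither array of NF3 or CAF2, so its direction there cannot be read. The labels give the replicate numbers no meaning across lines. Over all tested probes, however, the differences between replicates correlated positively in every pair among NF2, NF3, CAF2, CAF3 and CAF4. A direction shared by these lines is therefore not particular to the 3 genes, and what the numbers share was not tested.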

How the results depend on the processing

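The counts in the 3 stage comparisons and over replicates were 0 in every alternative tried, and no tested result reversed. The untested direction of the set between replicates turned in NF2 (median 0.36, or -0.10 with median scaling) and in AdAF1 (0.06, or -0.30). With the authors' normalized table, 2 genes were called in CAF3, and 1 gene in NF2, 1 in NF3, 14 in CAF2 and 7 in CAF4 were at least 2-fold apart between replicates. With median scaling, 1 gene differed among lines, 1 was called in HpAF1, 2 in CAF2 and 2 in CAF3, and 2 were 2-fold apart in AdAF1. Without the filter, 1 differed among lines, 2 were called in HpAF1 and 0 in CAF3. With the probes of a gene averaged, 2 were called in CAF3. At an adjusted p under 0.10, 5 differed among lines, 1 was called in CAF1, 7 in CAF2 and 4 in CAF3. Leaving out 1 array at a time gave 0 to 10 genes among lines; leaving out either array of the line itself gave 0 in HpAF1, 0 to 12 in CAF2 and 0 in CAF3. Without replicate 1 of CAF2 and of CAF4 together, chosen after the data were seen, 8 differed among lines, and 1 was called in NF3, 7 in HpAF1, 1 in AdAF1, 1 in CAF2 and 5 in CAF3. With the replicate number as a block, although the pairing of replicates is not established, 3 genes differed among lines (30.0% of probes) and 2 were called in CAF3; the block moved no other count by over 1.5 times. Among results for single genes, calls were lost 45 times and gained 14 times when arrays or lines were left out, lost 7 times with median scaling and 5 times without the filter, and gained 2 times at an adjusted p under 0.10. The cause of these shifts was not tested. Signal over background limits the 15 genes not detected on every array, and 11 genes could not be tested.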
